A study of Arabidopsis thaliana with 18 samples.

Results

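The *fpa* mutant was compared with the wild type over all genes. The comparison took the 3 libraries labelled *fpa* and the 3 labelled WT, 6 of the 18 libraries of the series, and 20143 of the 33602 genes in the count table had enough reads to be tested. Each library was made from messenger RNA of whole seedlings of *Arabidopsis thaliana*, ecotype Col-0, at 8 days of age. Seeds had been kept 4 days at 4 °C and seedlings then grew on MS plates in 16 h light and 8 h darkness at 21 °C. The *fpa* group is 1 line carrying the allele *fpa-7*, and the WT group is the same ecotype without a mutation. The other 12 libraries came from the insertion mutants *bdr1*, *bdr2* and *bdr3* (BORDER genes) and from *bdrs*, which combines all 3, and they served here to set the *fpa* values against further lines. Nothing read here tells if libraries of a line came from separate plates or cultures, so p-values measure the spread between these libraries.

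FPA is a nuclear protein that binds RNA and carries a SPOC domain. It is known as a member of the autonomous flowering pathway, a group of genes that keeps the flowering repressor *FLC* low without a need for cold. It is also known to act on where transcripts end, so that without it some transcripts run past the end of their gene and into the next gene on the strand. The values below therefore start with *FPA* and the flowering genes, go on to genes that lie in a row on 1 strand, and then turn to the wider groups of genes.

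Library totals were 17062008 to 17713047 counts in WT and 15613882, 16707430 and 11566600 counts in *fpa* 1, 2 and 3. Genes of ribosomal RNA took 0.0999% to 0.157% of counts in WT and 0.708%, 0.102% and 2.02% in *fpa* 1, 2 and 3. Transcript length also moved with the group. Among genes of at least 5 CPM, those with at most 600 bp of exons stood a median 0.185, 0.388 and 0.611 log2 units above the WT mean in *fpa* 1, 2 and 3, and genes with over 3000 bp stood at −0.19, −0.313 and −0.499. The 3 WT libraries ranged from −0.259 to 0.134 in the short genes and from −0.0954 to 0.162 in the long ones. Named genes that lose their call once this trend is removed are given with that below, and the part of the trend in the others was not tested.

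*FPA* (AT2G43410, chr2:18025247-18031255, minus strand, TAIR10.1) was read at 31.5, 46.3 and 42.2 CPM in WT 1, 2 and 3, where CPM is the count scaled for library size by edgeR. It was read at 21.9, 22.8 and 25.7 CPM in *fpa* 1, 2 and 3. The groups did not overlap, and *FPA* fell by 0.77 on the log2 scale (SE 0.17, edgeR adjusted p = 0.010). *FPA* transcripts were thus still counted in the mutant at 23.5 ± 1.95 CPM against 40.0 ± 7.66 CPM (SD, n = 3), and counts over a whole gene cannot show the lesion of the allele. Leaving out WT 2, *fpa* 1 or *fpa* 2 ended this call, with adjusted p at 0.080, 0.057 and 0.054. With the length trend removed the change was −0.31 (adjusted p = 0.38), for a gene with 5273 bp of annotated exons. The other 8 measured members of the autonomous pathway, among them *FCA*, *FY*, *FLD* and *FLK*, were not called, at −0.15 to −0.55. At an unadjusted p under 0.05 edgeR gave 4 of the 9 members lower and 0 higher, where 2330 of all 20143 genes tested were lower. Against the mean of *bdr1*, *bdr2* and *bdr3*, 2 members were called lower, and with the length trend removed 0 were called lower than WT.

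*FLC* (AT5G10140, chr5:3173382-3179448, minus strand), which encodes the MADS-box repressor of flowering, rose in every *fpa* library. It stood at 6.69, 5.06 and 4.95 CPM in WT and at 87.7, 80.9 and 57.2 CPM in *fpa*. The lowest *fpa* library was far above the highest WT library, and the log2 fold change was 3.76 ± 0.24 (SE, edgeR adjusted p = 8.0e-09). *FLC* was also higher in *fpa* than in *bdrs*, where it was read at 50.3, 35.1 and 40.6 CPM (log2 difference 0.85, adjusted p = 0.011).

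The close relatives of *FLC*, the *MAF* genes, and *SVP*, which encodes a partner of the FLC protein, were not called against WT. *MAF1* ranged from 15.8 to 22.6 CPM in WT and from 19.9 to 25.8 CPM in *fpa*, and *MAF2* from 8.65 to 11.2 and from 8.02 to 11.3 CPM. *SVP* was at 82.9 ± 9.32 CPM in WT against 81.3 ± 20.6 CPM (SD, n = 3). *MAF3* was likewise not called (log2 fold change −0.19, adjusted p = 0.66). *MAF4* was low but did not overlap, at 0.844 to 1.50 CPM in WT and 1.88 to 2.59 CPM in *fpa*, with a log2 fold change of 1.00 ± 0.32 and an adjusted p of 0.085, or 0.026 with the replicate number as a block. *MAF5* was too low to be tested. Against the mean of *bdr1*, *bdr2* and *bdr3*, *MAF1* and *MAF4* were called higher in *fpa* (log2 differences 0.48 and 1.09, edgeR adjusted p = 0.032 and 0.011), and *MAF2*, *MAF3* and *SVP* were not called. *MAF1* was also higher than in *bdrs* (0.60, adjusted p = 0.023), and *MAF4* was not called there.

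Genes that promote flowering went the other way where they were called. *SOC1*, the MADS-box integrator that FLC is known to repress, was read at 7.67, 11.8 and 17.0 CPM in WT and at 0.526, 0.985 and 3.86 CPM in *fpa*. The highest *fpa* library was below the lowest WT library (log2 fold change −2.93 ± 0.50, adjusted p = 0.0010). *SPL15*, a further promoter of flowering, stood at 1.38 to 2.70 CPM in WT and at 0.616 to 0.936 CPM in *fpa* (−1.28 ± 0.33, adjusted p = 0.033). *GI*, a clock gene of the photoperiod pathway, fell from 31.2 to 18.4 CPM (−0.76 ± 0.21, adjusted p = 0.042). The *SPL15* call held in 2 and the *GI* call in 1 of the 6 fits that left out 1 library, and with the length trend removed *GI* had an adjusted p of 0.31. Of the 17 floral promoters listed, 8 were high enough to be tested, 3 were called lower and 0 higher, while over all genes tested 3.12% were called lower and 1.31% higher. At an unadjusted p under 0.05 edgeR also gave 0 higher, as did DESeq2, and with the length trend removed 2 members were lower. *FT*, *CO*, *LFY* and *AP1* were below the filter in these seedlings. *SEP3*, a MADS-box gene of the flower, fell from 1.52 to 2.25 CPM down to 0.099 to 0.739 CPM (−1.85 ± 0.41, adjusted p = 0.011).

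**Figure D1:**
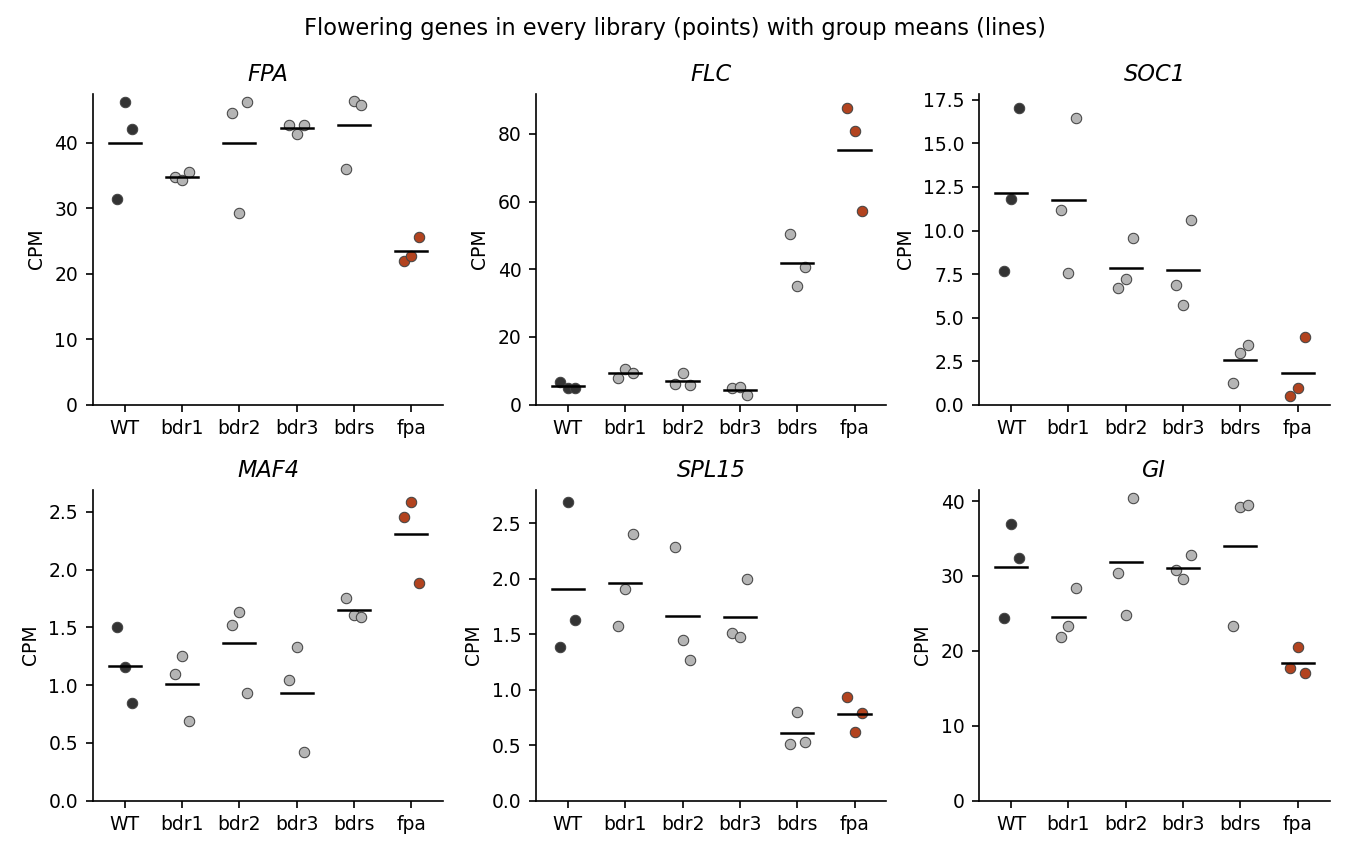
CPM of *FPA*, *FLC*, *SOC1*, *MAF4*, *SPL15* and *GI* in each library (points) of the 6 groups, with the group mean as a line and each vertical axis starting at 0. *FLC* stood at 57.2 to 87.7 CPM in *fpa* against 4.95 to 6.69 CPM in WT, and *FPA* itself at 21.9 to 25.7 CPM in *fpa*.

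Across all genes, 893 (4.43% of those tested) were called at an adjusted p under 0.05, of which 264 were higher in *fpa* (1.31%) and 629 lower (3.12%). By more than 2-fold 451 were called (2.24%), of which 153 were higher (0.76% of genes tested) and 298 lower (1.48%). The median log2 fold change over all genes tested was 0.01. The counts of calls depended on single libraries: without WT 2, WT 3, *fpa* 1 or *fpa* 2 there were 136, 174, 157 and 154 higher and 340, 416, 358 and 379 lower genes. In all 6 fits that left out 1 library, 105 of the higher and 274 of the lower genes kept their call. With the replicate number as a block the counts were 474 higher and 888 lower. With the length trend removed they were 249 and 633, of which 199 and 494 were among the genes called here. The called genes also differed in length, with a median of 1319 bp of exons in the higher genes and 1898 bp in the lower ones, against 1776.5 bp in genes not called.

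**Figure D2:**
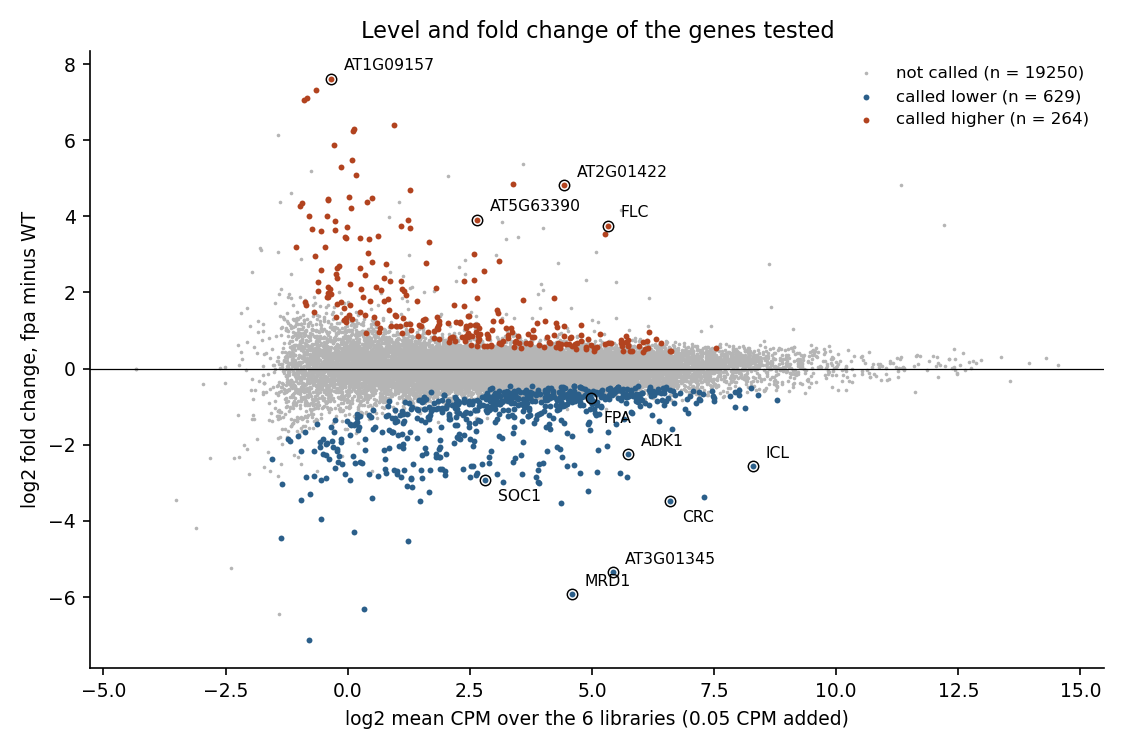
Log2 fold change of *fpa* against WT (vertical) by log2 mean CPM over the 6 libraries (horizontal, 0.05 CPM added), with 264 genes called higher in red, 629 called lower in blue and the rest in grey. Many of the highest fold changes lie at low levels, as for AT1G09157, which had no counts in WT, while *ICL* and *CRC* fell from high levels. Folds of genes with no counts in a group are fitted values and no measure of size.

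Genes that were near silent in WT and read in all *fpa* libraries led the higher genes by fold. AT1G09157, which encodes a putative transmembrane protein, had 0 counts in the 3 WT libraries and 64 counts over the *fpa* libraries, at 1.58, 1.29 and 1.58 CPM. Set against a floor of 3 counts over the WT group (0.0563 CPM), it was at least 26.2-fold higher. *PMEI1*, a pectin methylesterase inhibitor (0 against 54 counts), was at least 22.1-fold higher on that floor. *LRE*, the LORELEI gene known from the female side of pollen tube reception (0 against 45 counts), was at least 18.4-fold higher. *CNGC16*, an ion channel of pollen, went from 2 counts over WT to 169 over *fpa*, a ratio of 104 with a 95% interval of 28.3 to 863 for counting error only. *MYB120*, a transcription factor of the pollen tube, went from 2 to 79 counts (ratio 48.5, interval 13.0 to 407).

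The other 10 of the 15 named by fold were AT4G24652, AT5G61180, AT3G19085, *PUP15*, *C2*, AT5G24240, AT2G01422, AT1G32375, AT4G27790 and AT5G03435. The rule that named them asked for *fpa* libraries all above WT, which held for 12.7% of all genes tested. The highest reads were those of AT2G01422, an RNA with no annotated protein, at 1.44, 1.43 and 1.52 CPM in WT and 30.2, 39.1 and 55.9 CPM in *fpa* (log2 fold change 4.82 ± 0.26, adjusted p = 9.1e-10). AT5G24240, which encodes a protein like phosphatidylinositol 4-kinase, stood at 0.634, 0.55 and 0.9 CPM in WT and at 21.6, 18.3 and 20.7 CPM in *fpa* (4.85 ± 0.28, adjusted p = 1.9e-09). AT1G32375, an F-box gene, went from 0.112 to 0.22 CPM in WT to 4.46 to 4.74 CPM in *fpa*. All 15 were also higher in *fpa* than the mean of *bdr1*, *bdr2* and *bdr3* (adjusted p of 3.4e-05 or less) and than *bdrs* (0.016 or less). The *fpa* libraries that named these genes serve in both comparisons, so these p-values are no separate evidence. Against WT, *C2* and *MYB120* were called higher in *bdrs* too (log2 fold changes 3.34 and 3.51, edgeR adjusted p = 0.0048 and 0.024). AT2G01422 was called lower than WT in *bdr2* (−2.92, 0.010) and in *bdrs* (−3.36, 1.0e-04). The rest of the 15 were not called in *bdrs* against WT.

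Of these 15 genes, 12 had their nearest upstream gene on the same strand, and in 9 of them it ended within 500 bp of the start or overlapped it. The 12 upstream genes were read at 2.81 to 345 CPM in WT (median 20.1), and 10 of them stood above 10 CPM. *PMEI1*, for example, starts 84 bp after *mtLPD1*, which encodes a mitochondrial lipoamide dehydrogenase and was read at 345 ± 23.4 CPM in WT and 270 ± 24.0 CPM in *fpa* (adjusted p = 0.13). AT1G09157 starts 106 bp after the protein phosphatase gene AT1G09160, which stood at 38.5 ± 1.83 and 36.6 ± 3.45 CPM (adjusted p = 0.78). AT1G32375 starts 193 bp after *TOM2B*, also with a further annotated gene overlapping the stretch (10.2 ± 0.413 and 9.43 ± 0.913 CPM, adjusted p = 0.73). In 1 of the 12 the upstream gene was itself called, AT5G55040 upstream of *MYB120*, which was lower, and 0 were higher.

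The same arrangement was counted for every called gene. The upstream gene was on the same strand for 168 of the 264 higher genes (63.6%), for 328 of the 629 lower genes (52.1%) and for 51.0% of the 20008 tested genes with an annotated neighbour. It was on the same strand and within 500 bp, overlaps included, for 39.4% of the higher genes, 30.7% of the lower genes and 23.4% of all. Among the 66 higher genes under 0.5 CPM in WT the share was 57.6%, and among all 586 tested genes under that level it was 27.0%. These 66 were low in WT and had to be read in *fpa* to be called, so the shares are a description.

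Distance separated the strands in the higher genes. Of tested genes that started 0 to 100 bp after a gene on their own strand, 2.06% were called higher, against 0.844% where that gene was on the opposite strand. The shares were 2.04% and 0.799% above 100 and up to 250 bp, and 1.88% and 0.703% from there to 500 bp. Beyond 500 bp they lay between 0.897% and 1.23% on either strand. Where the upstream gene overlapped the start, 4.66% of 408 same-strand genes and 1.81% of 775 opposite-strand genes were higher. The lower genes differed less between the strands, with 3.62% and 3.94% at 0 to 100 bp, 4.36% and 2.57% from there to 250 bp and 4.25% and 3.75% up to 500 bp. No test was made of these shares, since neighbouring genes are not replicates.

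**Figure D3:**
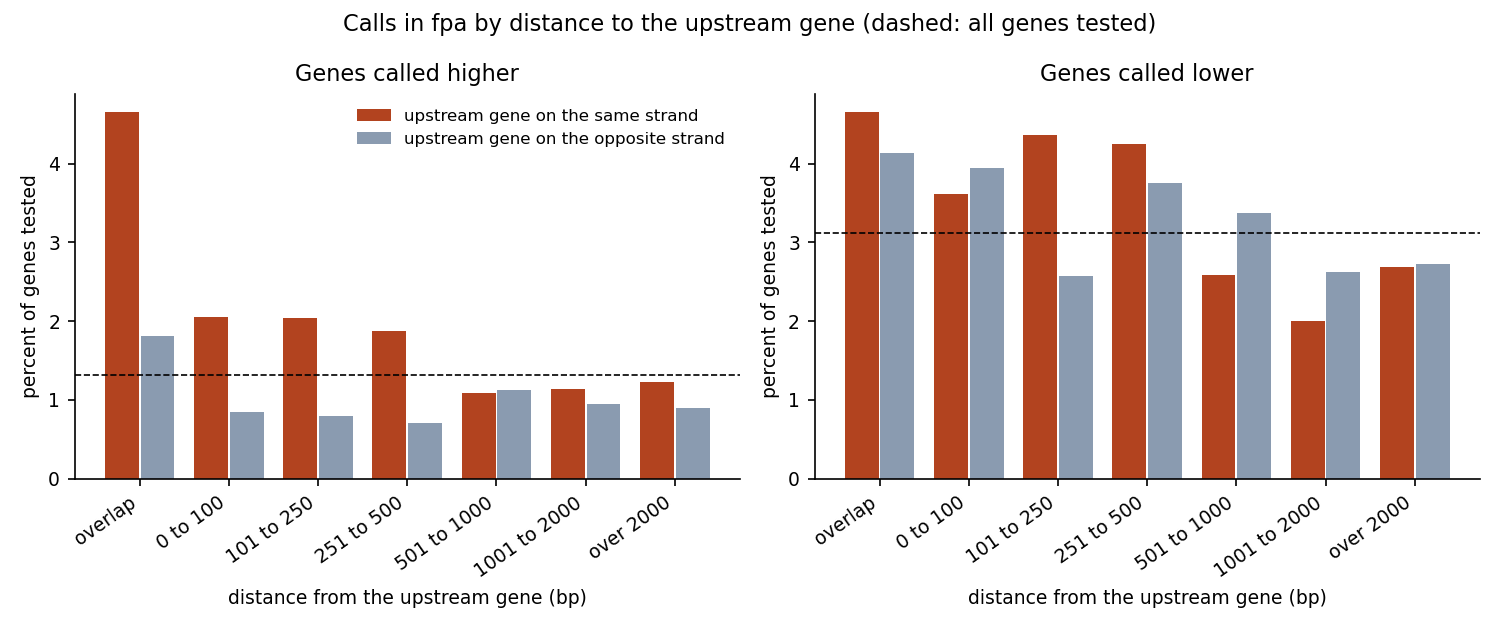
Percent of tested genes called higher (left) and lower (right) in *fpa* by the distance in bp from the upstream gene, in bars for an upstream gene on the same or the opposite strand, with the dashed line at the share over all genes tested (1.31% and 3.12%). Up to 500 bp the same-strand bars for higher genes stand at 1.88% or more and the opposite-strand bars, overlaps aside, at 0.844% or less.

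In some rows the upstream gene changed too. Among 3478 same-strand neighbours at 0 to 500 bp with both genes tested, 12 had the upstream gene lower and the downstream gene higher, and 1 had the reverse. In 3 both were lower and in 1 both were higher. Among 2098 opposite-strand neighbours at that distance the counts were 1, 1, 6 and 0. With the replicate number as a block, 15 same-strand neighbours had the upstream gene lower and the downstream gene higher, and 5 the reverse. With the length trend removed the counts were 12 and 0. No source read here states how the authors' counting treated strand, so for overlapping genes the reads of both partners cannot be told apart.

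*ADK1* and AT5G63390 were the clearest of these. *ADK1* (AT5G63400, chr5:25392920-25394907, minus strand), which encodes an adenylate kinase, was read at 78.5 to 96.4 CPM in WT and at 15.8, 19.0 and 21.1 CPM in *fpa*. The groups lay far apart, and *ADK1* fell by 2.25 on the log2 scale (SE 0.16, adjusted p = 2.6e-08). AT5G63390 (chr5:25390249-25392684), an O-fucosyltransferase gene that starts 235 bp after it, rose from 0.865, 0.66 and 0.787 CPM to 11.6, 11.4 and 12.2 CPM (3.92 ± 0.25, adjusted p = 7.3e-09). In the 12 libraries of the *bdr* lines *ADK1* stood at 73.4 to 105 CPM and AT5G63390 at 0.22 to 0.87 CPM, so neither gene of the row reached its *fpa* level in another line.

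The other 4 rows named by the smallest p had the same signs. *NdhO* (AT1G74880), a subunit of the chloroplast NDH complex, fell from 77.9 ± 5.88 to 34.9 ± 3.54 CPM, and the F-box gene AT1G74875, 82 bp on, rose from 0.73 ± 0.132 to 2.54 ± 0.257 CPM. AT2G21580, a gene of ribosomal protein S25, fell from 118 ± 11.5 to 60.8 ± 5.05 CPM, and *APL4* (AT2G21590), a large subunit of the enzyme that makes ADP-glucose for starch, rose from 1.61, 2.26 and 2.14 CPM to 12.5, 9.11 and 8.42 CPM at 449 bp. *TOC75-III* (AT3G46740), the protein import channel of the chloroplast envelope, fell from 119 ± 12.0 to 69.8 ± 6.82 CPM. AT3G46730, which encodes a resistance protein of the NB-ARC class and starts 57 bp after *TOC75-III*, with a further annotated gene overlapping the stretch between, rose from 0.225 ± 0.0534 to 2.37 ± 1.19 CPM. The protein kinase gene AT5G18190 fell from 45.4 ± 7.19 to 27.0 ± 0.972 CPM, and AT5G18180, a gene for a Gar1/Naf1 protein of small nucleolar particles, rose from 0.602 ± 0.0995 to 2.95 ± 0.499 CPM at 50 bp. All 8 genes kept their calls in each of the 6 fits that left out 1 library and with the length trend removed (largest adjusted p 0.020). Every downstream gene stayed below the level of the gene before it in *fpa*. *APL4* was also higher than in *bdrs* (log2 difference 2.62, adjusted p = 7.2e-06), and AT1G74875 missed that test (0.77, adjusted p = 0.052).

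**Figure D4:**
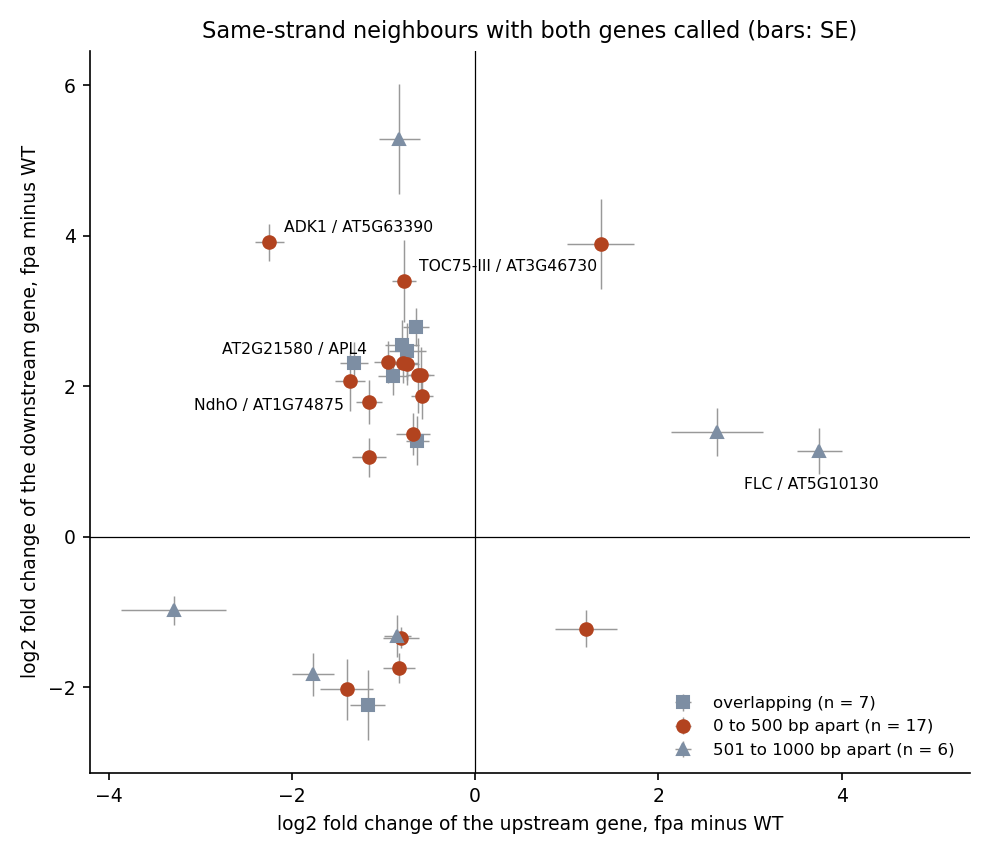
Log2 fold change in *fpa* of the upstream gene (horizontal) and the downstream gene (vertical) for the 30 same-strand neighbours at −1000 to 1000 bp with both genes called, with bars for the SE and a negative distance meaning overlap. The upper left, upstream lower and downstream higher, holds 19 of them, with *ADK1* and AT5G63390 at −2.25 and 3.92.

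The stretches between neighbours follow the annotated end of the upstream transcript, and a transcript that runs on would cross them, so those of 3 rows above and of 2 near-silent genes are shown. They are read from the RefSeq genome TAIR10.1 from the annotated end of the upstream gene to the annotated start of the downstream gene, 5′ to 3′ on the strand of both. Capitals mark AATAAA, the textbook poly(A) signal, where it occurs.
ADK1 to AT5G63390 (chr5:25392685-25392919, minus strand, 235 bp): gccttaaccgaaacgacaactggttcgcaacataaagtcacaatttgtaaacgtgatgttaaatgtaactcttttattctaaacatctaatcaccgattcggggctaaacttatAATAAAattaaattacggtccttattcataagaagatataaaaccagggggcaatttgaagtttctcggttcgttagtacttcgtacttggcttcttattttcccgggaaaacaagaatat
NdhO to AT1G74875 (chr1:28129746-28129827, minus strand, 82 bp): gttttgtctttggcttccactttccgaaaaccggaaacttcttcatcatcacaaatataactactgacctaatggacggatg
AT5G18190 to AT5G18180 (chr5:6009762-6009811, minus strand, 50 bp): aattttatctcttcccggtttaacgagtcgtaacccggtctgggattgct
mtLPD1 to PMEI1 (chr1:17716809-17716892, minus strand, 84 bp): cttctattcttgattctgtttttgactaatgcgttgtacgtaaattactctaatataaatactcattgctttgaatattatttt
AT1G09160 to AT1G09157 (chr1:2952491-2952596, minus strand, 106 bp): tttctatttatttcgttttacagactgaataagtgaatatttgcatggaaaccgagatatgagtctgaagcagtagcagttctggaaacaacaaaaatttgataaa
The sense strand held AATAAA in 1 of these 5, that of *ADK1*. Of all 1155 same-strand gaps within 20% of its length, 33.7% held the motif on the sense strand and 30.4% on the antisense strand. The antisense strand of the *ADK1* and AT1G09160 stretches each held it 1 time. For gaps of like length to the 82, 50, 84 and 106 bp ones, the sense-strand shares were 15.7%, 7.89%, 16.2% and 16.6%. A poly(A) signal normally lies before the end of a transcript, inside the annotated gene, and that sequence was not searched. Whether transcripts crossed these stretches in *fpa* was not tested, since only counts per gene were read.

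*FLC* itself has a row. AT5G10130, chosen after its values were seen, starts 680 bp after *FLC* on the same strand and went from 3.76 ± 1.34 CPM in WT to 8.41 ± 3.36 CPM in *fpa* (adjusted p = 0.041, or 0.063 with the length trend removed). Here both genes were higher, as in 3 of the 30 rows with both genes called.

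Seed genes formed the largest group of lower genes among the 25 lists. Of the 19 genes of seed maturation listed, 15 were tested, 11 were lower and 0 were higher. At an unadjusted p under 0.05 edgeR gave 13 lower and 0 higher, DESeq2 called 12 and 0, and with the length trend removed 13 were lower. The median log2 fold change of the 15 was −2.56, against 0.01 over all genes tested, where 3.12% were called lower. The list's CPM summed to 504, 622 and 848 in WT and to 81.4, 89.6 and 64.4 in *fpa*. All 3 *fpa* sums were also below the 12 sums of the *bdr* lines, which ranged from 132 in *bdrs* to 942 in *bdr2*. The *bdrs* sums, at 272, 188 and 132, and the *bdr1* sums, at 304, 369 and 381, were themselves below all 3 WT sums. The *bdr3* sums were 552, 847 and 436, and the *bdr2* sums 942, 687 and 762. *CRA1*, *CRC*, *OLEO1*, *PER1*, *ABI3* and *EM1* were called lower in *bdrs* than in WT too. Their log2 fold changes there were −0.82 to −2.01 (largest edgeR adjusted p 0.047). In whole seedlings, fewer cells of a type and less RNA per cell cannot be told apart.

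Storage proteins were read highest. The cruciferin genes *CRA1* and *CRC* (AT4G28520) encode globulins of the seed. *CRA1* stood at 228, 277 and 352 CPM in WT and at 27.3 ± 8.60 CPM (SD) in *fpa* (log2 fold change −3.38 ± 0.32, adjusted p = 1.1e-06). *CRC* stood at 114, 180 and 237 CPM and at 19.7, 20.3 and 7.33 CPM (−3.47 ± 0.40, adjusted p = 1.6e-05). Neither gene overlapped between the groups. The albumin genes *SESA1* and *SESA2* were lower too, from 1.39 and 4.85 CPM to 0.34 and 0.739 CPM.

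Listed genes of oil bodies, of drying and of seed control were among the lower ones too. The oleosin genes *OLEO1* and *OLEO2* fell from 26.7 to 3.34 CPM and from 83.2 to 12.5 CPM. *EM1* and *EM6*, late embryogenesis abundant (LEA) proteins, had log2 fold changes of −2.84 and −1.54. *PER1*, a peroxiredoxin of dry seed, fell by 2.56. *ABI3* and *ABI5*, transcription factors of seed maturation and of the response to abscisic acid, were read at 6.73 ± 2.07 and 3.58 ± 0.753 CPM in WT. In *fpa* they were at 1.08 ± 0.497 CPM (−2.69 ± 0.31, adjusted p = 1.2e-05) and at 0.992 ± 0.480 CPM (−1.82 ± 0.28, adjusted p = 3.2e-04). The 4 members not called were *SESA3* (−1.58, adjusted p = 0.058), *OLEO4* (−1.18, 0.075), *CRB* (−1.22, 0.39) and *DOG1* (−0.10, 0.95). The seed regulators *FUS3*, *LEC1* and *LEC2* were below the filter.

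**Figure D5:**
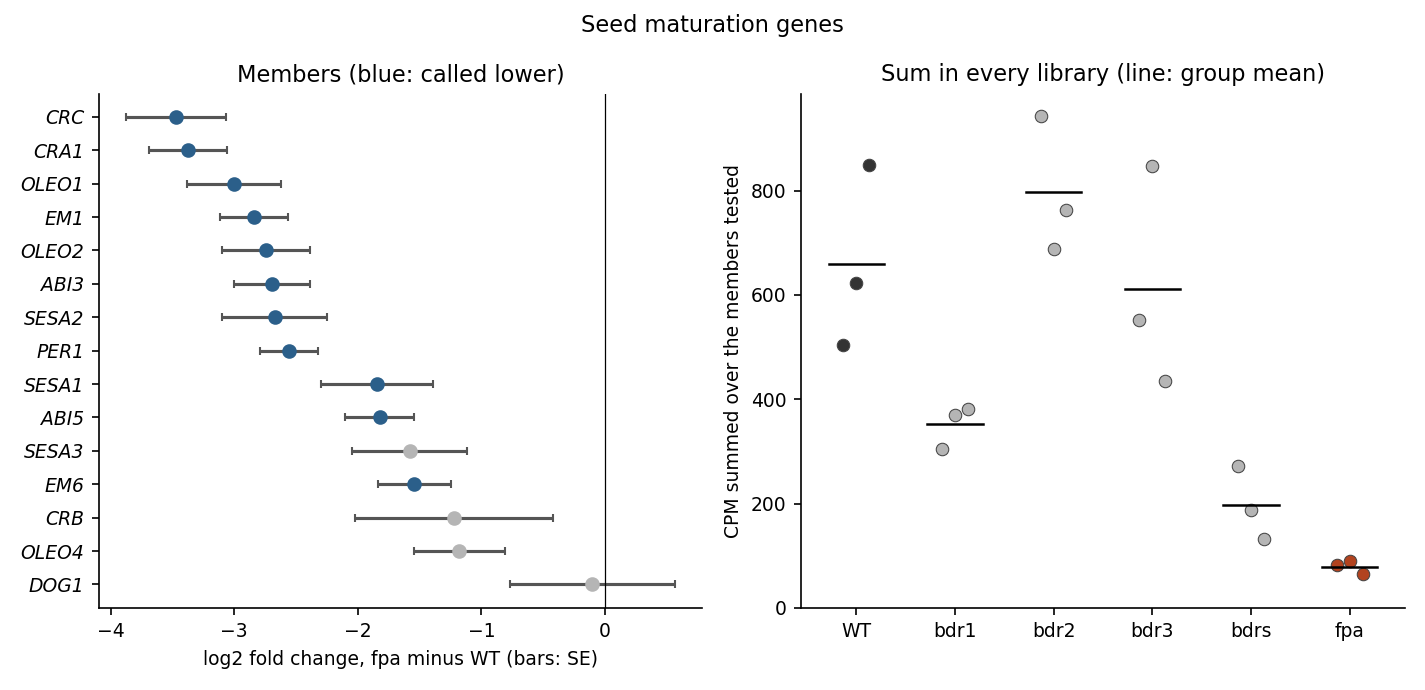
Left, log2 fold change of *fpa* against WT for the 15 tested seed maturation genes with the SE as bars, the 11 called lower in blue. Right, their summed CPM in each library of the 6 groups with the group mean as a line, at 64.4 to 89.6 in *fpa* and 504 to 848 in WT.

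The lower genes with the largest folds included some outside the seed list. *TIP3;1*, a water channel of the seed vacuole, stood at 46.1, 43.7 and 73.9 CPM in WT and at 4.74, 7.27 and 5.55 CPM in *fpa* (−3.22 ± 0.33, adjusted p = 3.9e-06). *DSI-1VOC*, named for its rise on desiccation, fell from 2.49 ± 0.267 to 0.227 ± 0.0708 CPM. The glycine-rich protein gene AT5G35660 fell from 28.1 to 52.1 CPM in WT to 3.14 to 3.51 CPM in *fpa*, and AT2G05580 of the same family from 4.40 to 0.482 CPM. The extensin-like gene AT5G59170 and the proline-rich gene AT5G43770 had log2 fold changes of −3.48 and −4.30. AT1G05510, AT1G14930 and AT5G43180 were at −3.23, −3.94 and −4.54. AT5G20750, AT3G05170, *MRD1* and AT3G01345 had the largest fitted folds and are described with the *bdr* lines. For AT1G14930, with 3 counts over *fpa* and 63 over WT, the WT to *fpa* ratio was 17.1 with a counting interval of 5.60 to 85.2.

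A few genes of the path from stored oil to sugar were lower. *ICL* (AT3G21720), the isocitrate lyase of the glyoxylate cycle, was among the 5 most abundant lower genes, at 417, 543 and 646 CPM in WT and 69.7, 119 and 84.5 CPM in *fpa*. No library overlapped (log2 fold change −2.56 ± 0.28, adjusted p = 8.4e-06). Its partner *MLS*, malate synthase, and *PCK1*, phosphoenolpyruvate carboxykinase, were chosen after their values were seen. *MLS* went from 63.5 ± 12.7 to 15.6 ± 4.19 CPM (−2.03 ± 0.22, adjusted p = 6.8e-06) and *PCK1* from 283 ± 42.3 to 172 ± 14.6 CPM (−0.71 ± 0.13, adjusted p = 0.0023). Of 7 tested genes of this path, a set also chosen after values were seen, 3 were lower, 0 were higher and the median was −0.36. Over all genes tested 3.12% were lower and 1.31% higher.

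The list of abscisic acid, drought and cold genes had 5 of 17 tested members lower, where 3.12% of all genes tested were lower, and 0 higher, with a median of −0.38 (6 lower and 0 higher at an unadjusted p under 0.05 in edgeR, 5 and 0 with DESeq2). *RAB18*, a dehydrin, fell from 111 to 173 CPM in WT to 35.7 to 62.4 CPM in *fpa* (−1.57 ± 0.24, adjusted p = 3.1e-04). *RD29B* fell from 55.4, 59.5 and 55.4 CPM to 7.95, 16.5 and 14.6 CPM (−2.13 ± 0.26, adjusted p = 2.8e-05). *RD29A*, its neighbour and a gene of drought and cold, fell by 1.44, *ADH1*, alcohol dehydrogenase, by 1.06 and *P5CS1*, a proline synthesis enzyme, by 0.86. These last 3 calls held in 1, 2 and 1 of the 6 fits that left out 1 library, and *P5CS1* had an adjusted p of 0.080 with the length trend removed. The remaining 12 members were between −0.69 and 0.08, among them the phosphatase genes *ABI1* and *ABI2* of the abscisic acid pathway and the cold genes *COR47* and *KIN2*.

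Genes that make RNA 3′ ends or act in elongation were mostly not called. Of 25 tested genes of 3′ end formation, 1 was higher and 0 were lower (3 and 3 at an unadjusted p under 0.05 in edgeR, 1 and 0 with DESeq2), against 1.31% and 3.12% of all genes tested, so the count says nothing particular of the list. That gene, *PCFS1* (AT1G66500), encodes a relative of the termination factor Pcf11 of yeast and stood at 2.31, 1.98 and 2.08 CPM in WT and 7.19, 5.79 and 7.33 CPM in *fpa*. The groups lay apart (log2 fold change 1.67 ± 0.24, adjusted p = 1.6e-04). Its relative *PCFS5* was not called (0.95 ± 0.28, adjusted p = 0.066), though 2 members of the list were higher with the replicate block and 2 against the single mutants, and *PCFS4* stood at −0.36. Of 16 genes of elongation, *SPT16*, a histone chaperone of transcribed genes, fell from 52.2 to 32.5 CPM (−0.68, adjusted p = 0.048), and leaving out any 1 library ended this call (0.065 to 0.25), as did removing the length trend (0.14). *SPT16* was the 1 call among these 16, beside the same 3.12% of all genes tested. At an unadjusted p under 0.05 edgeR gave 1 higher and 5 lower, and against the single mutants 2 were higher and 4 lower. *BDR1*, *BDR2* and *BDR3* were not called in *fpa*, at −0.01, 0.20 and 0.19.

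A few calls stood alone in their lists, beside 1.31% higher and 3.12% lower over all genes tested. In silencing, *RDR6*, an RNA-dependent RNA polymerase, fell by 0.66 and was 1 of 20 genes called. The median of these 20 was −0.33, with 8 lower and 0 higher at an unadjusted p under 0.05 in edgeR. Against the single mutants 4 of them were lower, and with the length trend removed 0 were. In heat shock, *HSP18.2*, a small chaperone, rose from 0.884 to 2.63 CPM (log2 fold change 1.55 ± 0.27, adjusted p = 0.0013), while *DREB2A*, a transcription factor of heat and drought, fell by 1.19 (adjusted p = 0.048), with the other 7 tested genes not called. In anthocyanin synthesis *GSTF12*, a carrier of the pigment, rose from 1.67 to 2.92 CPM in WT to 3.28 to 6.10 CPM in *fpa* (1.12 ± 0.30, adjusted p = 0.036). With the replicate block 3 of the 14 genes of that list were higher. The *RDR6*, *DREB2A* and *GSTF12* calls held in 2, 1 and 2 of the 6 fits that left out 1 library, and *RDR6* and *GSTF12* had adjusted p of 0.31 and 0.086 with the length trend removed.

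No member was called in 12 lists with 183 tested genes. They were the Calvin cycle, light harvesting and photosystems, light signalling, auxin, jasmonate, salicylic acid defence, NLR immune receptors, glucosinolates and camalexin, iron, phosphate, reference genes and the leaf markers. In these, edgeR gave 14 higher and 16 lower at an unadjusted p under 0.05 (16.4%, against 21.0% of all genes tested), and DESeq2 called 1 higher and 1 lower. With the replicate block 1 auxin gene was higher and 1 jasmonate gene lower, and with the length trend removed 2 NLR genes were higher. Against the single mutants 5 were higher and 5 lower, among them 3 iron genes that were higher. Summed leaf markers stood at 34189 to 37501 CPM in WT and at 29670 to 48834 CPM in *fpa*, and summed root markers at 209 to 233 and 209 to 236 CPM. Within the root markers *EXP7*, an expansin of root hairs, rose by 0.73 and *SCR*, a regulator of the endodermis, fell by 0.59 (adjusted p = 0.018 and 0.040), held in 4 and 1 of the 6 fits and lost with the length trend removed (0.10 and 0.11).

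The called genes with the highest levels were examined apart. The 5 higher ones were AT4G18100 and AT5G02450 (ribosomal proteins L32e and L36e), AT4G02530 (a thylakoid lumen protein), *mtACP2* (an acyl carrier protein of mitochondria) and *MT1C* (a metallothionein). The first, AT4G18100, went from 152 ± 16.1 CPM to 223 ± 7.79 CPM. The 5 log2 fold changes were 0.45 to 0.77, and with the length trend removed all 5 missed the threshold (adjusted p 0.053 to 0.41). Besides *ICL*, the 5 lower ones were *TLP18.3* (a thylakoid protein, 376 ± 47.1 to 185 ± 46.8 CPM, −1.02 ± 0.21), AT4G28080 (a TPR protein, −0.82), *DOX1* (an oxylipin enzyme, −0.68) and AT5G58330 (a malate dehydrogenase family gene, −0.52). Leaving out any 1 library ended the calls of AT4G18100, AT4G02530 and AT4G28080. The calls of AT5G02450, *mtACP2* and *MT1C* each held in 1 of the 6 such fits. Those of AT5G58330, *DOX1*, *TLP18.3* and *ICL* held in 2, 3, 5 and 6. AT4G28080 also lost its call with the length trend removed (adjusted p = 0.18).

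Values in the *bdr* lines bear on which differences go with *fpa* and which with the WT line used. Against the mean of *bdr1*, *bdr2* and *bdr3*, 938 genes were higher in *fpa* (4.66% of those tested) and 1237 lower (6.14%). Of the 264 genes higher against WT 248 were among them, and of the 629 lower genes 584, with the *fpa* libraries shared by both comparisons. Some of the largest falls against WT were smaller or absent against the *bdr* lines. AT5G20750 was read at 0.98, 1.21 and 0.956 CPM in WT, with 56 counts, and had 0 counts in all 15 other libraries, so that against a floor of 3 counts over the *fpa* group it was at least 15.2-fold lower than WT. AT3G01345 stood at 72.3, 83.5 and 95.3 CPM in WT, at 1.70, 2.28 and 2.28 CPM in *fpa* and at 0.478 to 2.72 CPM in the *bdr* lines. It was lower in *fpa* than in WT (−5.34 ± 0.22) and higher than in the single mutants (0.77, adjusted p = 0.024). *MRD1* (AT1G53480), which overlaps AT1G53490 on the other strand, was at 45.5 to 51.0 CPM in WT, 0.693 to 0.862 CPM in *fpa* and 1.06 to 11.8 CPM in the *bdr* lines. It was lower than in the single mutants (−2.33, adjusted p = 7.0e-07) and than in *bdrs* (−1.01, adjusted p = 0.015), against −5.92 from WT. For AT5G20750 and AT3G01345, and for the rest of the *MRD1* fall, the *fpa* lesion and a difference of the WT line from the mutant lines cannot be told apart. AT3G05170 had 128 counts over WT and 1 over *fpa* and was lower than in the single mutants too (log2 difference −6.31, adjusted p = 5.9e-08).

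The triple mutant *bdrs* was set beside *fpa* for the same genes. Of genes tested 19.9% differed, with *fpa* higher than *bdrs* in 9.02% and lower in 10.8%. Against WT, 381 of the 20143 genes tested were called higher in *bdrs* and 559 lower. Among these were 23 of the 264 genes higher in *fpa* and 166 of the 629 lower ones, with the WT libraries shared by both comparisons. *SOC1* (2.54 CPM in *bdrs* on average), *SPL15*, *TIP3;1* and *PER1* did not differ between *fpa* and *bdrs* by this test (adjusted p = 0.37, 0.59, 0.30 and 0.11), which does not show that they were alike. Against WT they were called lower in *bdrs* too (−2.23, −1.59, −2.73 and −2.01, edgeR adjusted p of 0.0061 or less). So were *DSI-1VOC*, AT1G05510, AT5G35660, AT5G59170, *RD29B* and *ADH1*, at −0.93 to −2.83 (0.032 or less). AT2G05580, AT1G14930, AT5G43770, AT5G43180, AT3G05170, *ICL*, *RAB18*, *RD29A* and *P5CS1* were not called in *bdrs* against WT. *CRC* and *EM1* were lower in *fpa* than in *bdrs*, with log2 differences of −1.91 and −2.02 (adjusted p = 0.0028 and 9.9e-05). AT5G63390 and *ADK1* differed from *bdrs* by 4.40 and −2.22 on the log2 scale (adjusted p = 1.6e-09 and 2.1e-08).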

How the data were processed

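RNA of 18 libraries, 3 for each of 6 lines, was made into stranded poly(A) libraries and read in 43 bp reads. Per the labels and methods, the authors aligned reads with STAR 2.5.2b to TAIR10, took unique alignments with SAMtools 1.3.1 and made gene counts with featureCounts, whose version and strand setting were not given in the sources used here. The deposited raw counts were analysed. The deposited normalized table holds a signal that the authors made with DESeq2 1.14.1 in R 3.3.2, counts divided by a size factor for 23577 genes, and served only as an alternative gene set.

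Counts were fitted with edgeR 4.0.16 in R 4.3.3 (filterByExpr, TMM scaling, quasi-likelihood test) on all 18 libraries, whose shared spread serves each contrast, and a gene was called at a Benjamini-Hochberg adjusted p under 0.05 over 20143 genes. Fold changes are *fpa* minus WT with SE, and CPM are means ± SD. Where a group had no counts, a floor of 3 counts was used, and ratio intervals are 95% intervals for counting error only. DESeq2 1.42.0 was an alternative, with other scalings and filters, a replicate block, other limits and each library left out in turn. The length trend was removed through offsets from a smooth fit of each library on exon length, an alternative chosen after seeing the data. Deviations of same-numbered *fpa* and WT libraries from their group means correlated at 0.25, 0.11 and 0.43. Those of unlike numbers ranged from −0.45 (*fpa* 1 with WT 3) to 0.22 (*fpa* 1 with WT 2). The main fit used the line only and took no account of pairs. Only the replicate block, an alternative, treated same numbers as pairs. Scripts were tested on simulated data, and tables were handled in Python 3.11.15 with pandas 2.3.3.

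Positions, exon lengths, gaps and product names came from RefSeq TAIR10.1, which matched 32835 of 33323 nuclear genes and has newer gene models than those counted. Genes named are *FPA*, *FLC* and its measured clade, the 15 higher and 15 lower with the largest fold (at least 1 CPM in the higher group, no overlap), the 5 each way with the highest CPM, up to 6 called members a list by smallest p, and the 5 opposite same-strand neighbours with the smallest larger p. Other members of a list are given as examples. The 25 lists, the rule and the tests were chosen with earlier results of these data known.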

Additional observations from a re-analysis of the deposited data

How the results depend on the processing

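*FLC* was called under every setting tried, and the 11 lower seed maturation genes became 10 to 13. Against 264 higher and 629 lower genes, the replicate block gave 474 and 888, the block with only the *fpa* and WT libraries 1592 and 1924, DESeq2 419 and 782, a fold over 2 as well 153 and 298, and the mean of *bdr1*, *bdr2* and *bdr3* in place of WT 938 and 1237. Leaving out 1 library gave 136 to 204 and 340 to 600. Against the single mutants, the replicate block gave 1391 higher and 1752 lower and leaving out 1 *fpa* library 287 to 549 and 476 to 728. *FPA* stood at −0.65 to −0.92 under the other settings and at −0.31 with the length trend removed. Neighbours with the upstream gene lower and the downstream gene higher, 12 as reported, were 41 in the block with only the *fpa* and WT libraries, 25 against the single mutants and 8 to 11 with 1 library left out. The reverse, 1 as reported, was 5 with the block, 29 in the block with only those libraries, 4 with DESeq2, 7 against the single mutants, 0 to 1 with 1 library left out, and 0 with only the *fpa* and WT libraries, without libraries over 1% ribosomal RNA or with the length trend removed. The share of higher genes with a close same-strand neighbour was 29.2% at a limit of 250 bp and 46.2% at 1000 bp. AT3G01345 reversed against the single mutants (0.77). Of 71 called genes named besides *FPA* and *FLC*, 71 kept their call with DESeq2 and with the block, 58 with the length trend removed, 53 without the libraries over 1% ribosomal RNA and 52 to 64 with 1 library left out. The cause of these differences was not tested. The block changed no other call among these genes. With 3 libraries a group and totals down to 11566600 counts, genes at a few counts rest on counting error as much as on replicate spread.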

Other observations

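Some further gene groups, chosen after their values were seen and so given with no test of the group, are described here by their product names in the annotation. Of 95 genes annotated as late embryogenesis abundant proteins or dehydrins, 72 were tested, 20 were lower in *fpa* and 1 was higher. Some such proteins are known to protect cells during drying, and the names alone do not show that all 95 do. Over all genes tested 3.12% were lower and 1.31% higher, while the median of the 72 was −0.06 on the log2 scale. *M17* went from 93.0 ± 37.8 CPM in WT to 12.9 ± 2.41 CPM in *fpa* (log2 fold change −2.84 ± 0.35, edgeR adjusted p = 3.0e-05). AT3G15670 went from 32.4, 32.9 and 38.4 CPM to 4.39, 7.14 and 9.51 CPM (−2.33 ± 0.19, adjusted p = 2.8e-07). AT3G02480 fell from 61.1 ± 11.8 to 19.4 ± 6.34 CPM and *LEA4-5* from 47.4 ± 7.41 to 20.4 ± 7.41 CPM. *RAB18* is counted in this group and in the drought list. Of 19 oleosin genes 12 were tested and 5 were lower, read against the same 3.12%, among them AT3G01570, which went from 25.2 ± 6.72 to 3.49 ± 1.49 CPM. *OLEO1* and *OLEO2* are among these 5 and were counted with the seed maturation genes above too.

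Of 690 F-box genes, which encode the parts of ubiquitin ligases that pick the target, 176 were tested, 9 were higher and 3 lower, beside 1.31% and 3.12% of all genes tested. AT2G17036 rose from 1.15, 2.09 and 2.59 CPM to 5.09, 5.05 and 4.95 CPM (1.37 ± 0.28, adjusted p = 0.0053). Ribosomal protein genes had a median of 0.30 over 314 tested genes, with 10 higher and 5 lower, beside the same 1.31% and 3.12%. All genes of at least 5 CPM with over 600 and up to 1000 bp of exons also stood above WT. Their medians were 0.127, 0.284 and 0.413 log2 units above the WT mean in *fpa* 1, 2 and 3. With the length trend removed, the ribosomal protein genes AT4G18100 (821 bp) and AT5G02450 (805 bp) lost their calls (edgeR adjusted p = 0.26 and 0.41). *RPL4* kept its call (7.3e-04). The part of this trend in the group median and in AT1G56045 was not tested. *RPL4* fell from 294 ± 15.4 to 191 ± 15.6 CPM (−0.63 ± 0.13, adjusted p = 0.0064), and AT1G56045 of the L41 family rose from 49.9 ± 9.25 to 81.4 ± 1.76 CPM (0.71 ± 0.17, adjusted p = 0.022).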
